A study of Mus musculus with 16 samples.

Results

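Butyrophilin-like genes of the gut epithelium and transcripts of intraepithelial lymphocytes were compared between secretory and other epithelial cells of the mouse small intestine. The set held 10 of the 45513 genes counted and was taken by gene name, without a threshold on any value. It consisted of 4 butyrophilin-like genes (*Btnl1*, *Btnl2*, *Btnl4* and *Btnl6*) and 6 genes of lymphocytes (*Cd3e*, *Cd8a*, *Itgae*, *Trdc*, *Gzma* and *Gzmb*). All 10 passed the filter on low counts, which kept 15323 genes.

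The data were 16 RNA libraries from the proximal small intestine of 8 *Atoh1*(WT)CreERT2 *R26R*tdTom mice, 1 library of EpCAM+tdTom+ and 1 of EpCAM+tdTom- live cells from each mouse. The question was which transcripts set Atoh1-expressing secretory cells apart from the rest of the epithelium. All mice carried the same alleles and all received tamoxifen, 1 mg per day on 3 consecutive days per the labels and the methods given for the secretory signature. CreERT2 is made from the *Atoh1* locus, so the red reporter tdTom is switched on in *Atoh1*-expressing cells and stays on in their progeny. tdTom- means no recorded recombination rather than a purified cell type. Per the methods the animals were males and females of C57BL/6 background, 8 to 16 weeks old, and a villus-enriched fraction was discarded before the sort. The sort selected EpCAM, a surface protein of epithelial cells, so lymphocyte RNA in these libraries came through a gate meant for epithelium. No sort for a lymphocyte marker is described.

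Butyrophilin-like proteins are relatives of the B7 and butyrophilin families with immunoglobulin-like extracellular domains. In the mouse gut, BTNL1 pairs with BTNL6 or BTNL4 at the surface of villus enterocytes, and the BTNL1-BTNL6 pair maintains and selectively engages the Vγ7+ subset of γδ T cells that lives between enterocytes. BTNL2 is best known as a negative regulator of T cell activation. On the lymphocyte side, CD3ε is a signalling chain of every T cell receptor, the TCRδ constant region (*Trdc*) belongs to the γδ receptor, CD8α is carried as a homodimer by many intraepithelial lymphocytes, the integrin αE (CD103, *Itgae*) binds E-cadherin on epithelial cells, and granzymes A and B are proteases of cytotoxic granules.

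The 4 butyrophilin-like genes lie in 162531 bases of the major histocompatibility complex region (GRCm38, chr17:34354822-34517352). *Btnl2* (chr17:34354822-34369493) and *Btnl1* (chr17:34377132-34385776) are on the forward strand, and *Btnl4* (chr17:34469042-34475937) and *Btnl6* (chr17:34507804-34517352) on the reverse strand. The 250 bases before each start site are given because the genes of the cluster fell together but by different amounts (RefSeq, GRCm38.p6, 5′ to 3′ on the strand of the gene). In *Btnl1* (chr17:34376882-34377131) and *Btnl2* (chr17:34354572-34354821) the capitals mark letters of the HNF4 binding motif, CAAAGTCC.
Btnl1: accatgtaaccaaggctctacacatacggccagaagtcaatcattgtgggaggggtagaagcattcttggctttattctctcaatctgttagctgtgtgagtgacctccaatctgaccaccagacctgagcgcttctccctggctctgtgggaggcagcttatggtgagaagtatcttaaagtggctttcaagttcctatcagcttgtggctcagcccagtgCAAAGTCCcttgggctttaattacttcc
Btnl2: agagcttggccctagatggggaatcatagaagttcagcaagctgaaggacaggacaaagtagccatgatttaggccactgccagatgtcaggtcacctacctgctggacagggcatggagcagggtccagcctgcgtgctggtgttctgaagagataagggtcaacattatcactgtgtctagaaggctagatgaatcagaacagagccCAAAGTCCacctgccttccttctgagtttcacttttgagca
CAAAGTCC was found on the forward strand from base -28 to -21 in *Btnl1* and from base -41 to -34 in *Btnl2*, counted back from the start site, and was not in the *Btnl4* or *Btnl6* window. On either strand it was present in 393 of 32851 mouse promoter windows of the same length (1.20%). A CDX motif, TTTATNG, was in none of the 4 windows on either strand and in 9.81% of all windows. Both motifs were chosen after these sequences were read, and a match of letters is no evidence of binding.

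The windows of *Btnl4* (chr17:34475938-34476187) and *Btnl6* (chr17:34517353-34517602) are near copies of each other, and here the capitals mark the bases that differ in their alignment.
Btnl4: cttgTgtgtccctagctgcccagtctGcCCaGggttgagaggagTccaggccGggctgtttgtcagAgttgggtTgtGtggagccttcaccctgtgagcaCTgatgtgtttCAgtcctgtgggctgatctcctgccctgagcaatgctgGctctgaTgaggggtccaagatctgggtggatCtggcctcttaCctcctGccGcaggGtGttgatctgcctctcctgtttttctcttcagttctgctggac
Btnl6: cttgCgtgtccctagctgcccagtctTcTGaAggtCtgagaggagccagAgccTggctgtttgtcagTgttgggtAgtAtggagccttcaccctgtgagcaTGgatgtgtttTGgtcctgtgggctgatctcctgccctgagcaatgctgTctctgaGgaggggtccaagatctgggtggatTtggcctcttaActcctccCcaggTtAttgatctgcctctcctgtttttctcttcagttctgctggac
They were identical at 228 of 252 aligned positions (90.5%), with 20 substitutions and 4 gapped positions. The other 5 pairs of windows were 46.7% to 50.4% identical. RefSeq windows were found for 8 of the 10 genes, all but *Itgae* and *Trdc*.

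Likeness between copies also bears on the counts. *Btnl1* and *Btnl2* shared no read-length stretch of 50 bases, exact or with up to 2 mismatches, with the other butyrophilin-like genes of the cluster. In *Btnl4*, 14.0% of stretches occurred exactly in another gene's transcripts and 28.5% matched the pseudogene *Btnl5-ps* within 2 mismatches. In *Btnl6*, 6.58% of stretches were shared exactly and 25.9% matched *Btnl7-ps* within 2 mismatches. Counts of *Btnl4* and *Btnl6* are therefore uncertain by the reads that could have been placed in either copy, while those of *Btnl1* and *Btnl2* are not touched by this.

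Total assigned counts ran from 17116405 to 25323567 per library. *Epcam* did not pass the test between the fractions (1019 ± 53.8 CPM in tdTom- and 942 ± 56.6 in tdTom+, SD, n = 8 each; CPM are counts scaled to a common library size by TMM). *Atoh1*, which drives the recombinase, rose from 0.718 ± 0.247 to 62.5 ± 12.7 CPM (SD, n = 8 each). Of the 15323 genes tested by the edgeR quasi-likelihood F-test at an adjusted p under 0.01, 27.0% were called lower and 22.7% higher in tdTom+. The tdTom- libraries of mice 7 and 8 stood apart in lymphocyte RNA, with 117 and 156 counts of *Cd3e* against 9 to 38 in the other 6. Results on lymphocyte genes are therefore given with and without those 2 mice.

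Butyrophilin-like transcripts fell in tdTom+ cells, and by unequal amounts. All 4 genes were called lower, *Btnl2* to 10.8% of its tdTom- level, *Btnl1* to 19.0%, *Btnl6* to 29.4% and *Btnl4* to 51.3%. For each of them every tdTom+ library lay below every tdTom- library, a separation found for 17.0% of the genes tested. Each was lower in tdTom+ in 8 of 8 mice, as 27.4% of the genes tested were.

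*Btnl1*, the obligate partner of the surface pairs, ranged in tdTom- from 172 CPM in mouse 7 through a median of 257 to 347 in mouse 5. In tdTom+ it ranged from 36.4 CPM through a median of 42.6 to 84.5, again lowest in mouse 7 and highest in mouse 5. The groups did not overlap. Its log2 fold change was -2.39 (SE 0.19, edgeR adjusted p = 2.78e-09).

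*Btnl6*, which encodes the partner of BTNL1 in the pair seen by Vγ7+ cells, ranged from 143 CPM through a median of 252 to 314 in tdTom-. In tdTom+ it ranged from 55.9 CPM through 70.7 to 88.3. The 8 tdTom+ libraries were closer to one another (coefficient of variation 15.3%) than those of *Btnl1* (34.1%). On the log2 scale the difference was -1.77 (SE 0.15, edgeR adjusted p = 9.39e-09).

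*Btnl4*, whose upstream window is a near copy of that of *Btnl6*, ranged from 51.9 CPM through 72.7 to 98.4 in tdTom-. In tdTom+ it ranged from 33.4 CPM through 38.1 to 44.7. It kept the largest part of its level, and its tdTom+ libraries varied least of all 10 genes (coefficient of variation 8.61%). *Btnl5-ps*, which shares stretches with *Btnl4*, averaged 224 CPM in tdTom- and 130 in tdTom+, with a coefficient of variation of 10.4% in tdTom+. The part of its reads in the *Btnl4* values was not tested. The fitted log2 change was -0.96 (SE 0.12, edgeR adjusted p = 1.04e-06).

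*Btnl2*, which encodes the T cell inhibitor, ranged from 90.0 CPM in mouse 7 and 129 in mouse 8 through a median of 245 to 345 in tdTom-. In tdTom+ it ranged from 18.1 CPM through 20.9 to 47.2. The 2 lowest tdTom- libraries were thus those of mice 7 and 8, and they were also the 2 lowest for *Btnl6* and *Btnl4*. The log2 fold change was -3.21 (SE 0.28, edgeR adjusted p = 1.23e-08).

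**Figure D1:**
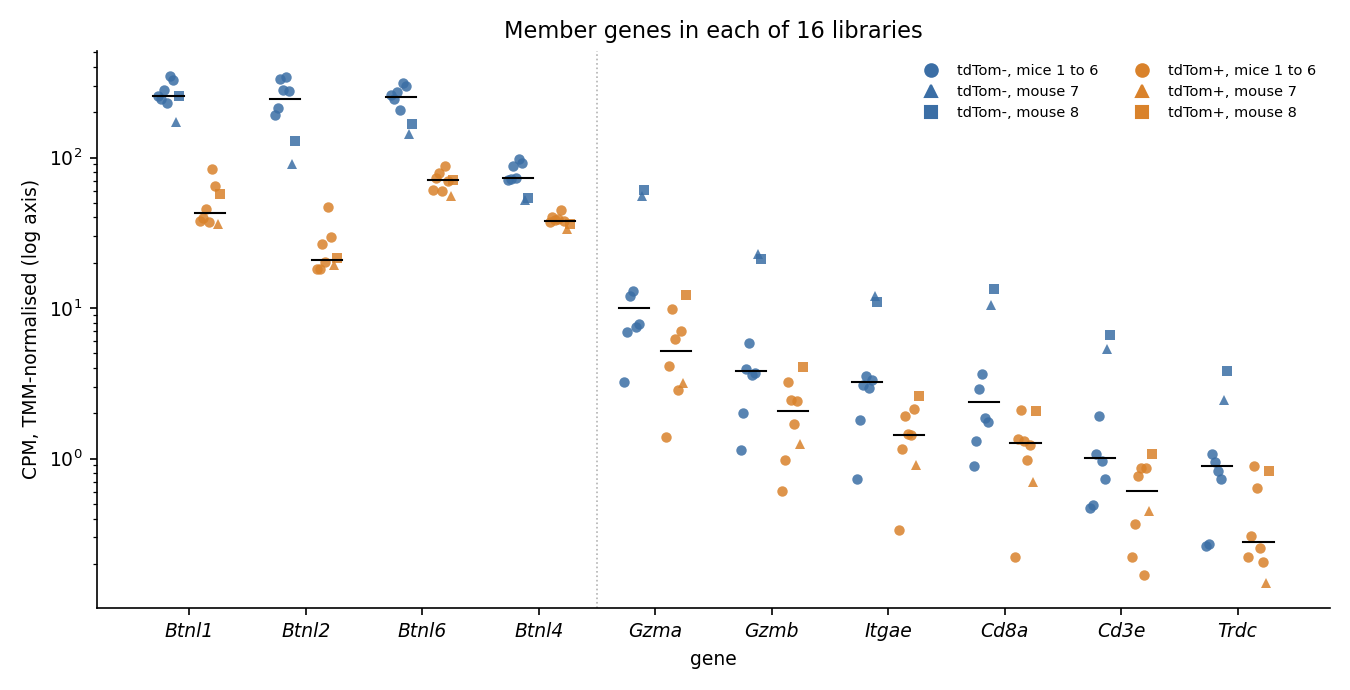
CPM of the 10 genes on a log axis in every library, tdTom- in blue and tdTom+ in orange, with mouse 7 as triangles, mouse 8 as squares and black bars at the group medians. The blue and orange points are apart for the 4 butyrophilin-like genes, while for the 6 lymphocyte genes they overlap and the 2 tdTom- libraries of mice 7 and 8 lie above all others.

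Because the falls differed, the order of the 4 genes changed between the fractions. Per kilobase of exon, the mean level in tdTom- was 142 CPM for *Btnl1*, 136 for *Btnl6*, 90.0 for *Btnl2* and 42.5 for *Btnl4*. In tdTom+ it was 39.9 for *Btnl6*, 27.1 for *Btnl1*, 21.8 for *Btnl4* and 9.70 for *Btnl2*. *Btnl1* and *Btnl6* in tdTom- differed by less than their spread between libraries (coefficients of variation 20.9% and 25.8%).

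The ratio of 2 genes within a library does not depend on scaling and was tested for the 6 pairs, a test added after the data were seen. The log2 ratio of *Btnl4* to *Btnl2* rose by 2.23 in tdTom+ (95% interval 1.78 to 2.68, from the exact sign-flip test over 8 mice). *Btnl4* to *Btnl1* rose by 1.49 (1.19 to 1.76), *Btnl6* to *Btnl2* by 1.43 (1.07 to 1.84), *Btnl4* to *Btnl6* by 0.80 (0.65 to 0.96) and *Btnl6* to *Btnl1* by 0.69 (0.44 to 0.90). In these 5 pairs all 8 mice showed the higher ratio in tdTom+. The exact two-sided permutation p of 0.000155 was the smallest that the assignments of 16 libraries can give (adjusted over 6 pairs, 0.000186). That test takes the libraries as unpaired. The exact sign-flip test, paired by mouse, gave p = 0.00781 for each of these pairs, the smallest that 8 mice can give. *Btnl1* to *Btnl2* rose by 0.73 (0.41 to 1.02) in 7 of 8 mice, with an exact permutation p of 0.00295 and an exact sign-flip p of 0.0156. Ratios that hold *Btnl4* or *Btnl6* carry the uncertainty of shared reads, and the ratio of *Btnl1* to *Btnl2* does not.

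Other members of the butyrophilin family were few in these cells. Of 23 family genes on a fixed list, 7 passed the filter, of which 6 were called lower, none higher, and *Skint8* was not called (0.791 ± 0.377 against 0.522 ± 0.218 CPM; edgeR adjusted p = 0.116). Beside the 4 genes above, the 2 called were the transcribed pseudogenes *Btnl7-ps* (log2 fold change -3.16, SE 0.27) and *Btnl5-ps* (-0.79, SE 0.15), neighbours of the cluster that share sequence with *Btnl4* and *Btnl6*. The median log2 fold change of the 7 was -1.77 against 0.01 for all genes tested, of which 27.0% were called lower. The myelin gene *Mog* and 6 of the *Skint* genes (*Skint1*, *Skint5*, *Skint6*, *Skint9*, *Skint10* and *Skint11*) had no count in any library.

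Lymphocyte transcripts were sparse, and much of their difference between the fractions lay in 2 mice. With all 8 mice, 4 of the 6 genes were called lower, beside 27.0% of all genes. Without mice 7 and 8, edgeR called 0 of 6 (2 of 6 at an unadjusted p under 0.05), beside 27.6% of all genes, while the 4 butyrophilin-like genes stayed called. With the mouse as a replicate block, which the design supports, all 6 were called, beside 30.0% of all genes. With the replicate block and without mice 7 and 8, 4 were called (*Cd8a*, *Gzmb*, *Itgae* and *Gzma*), beside 30.2% of all genes. In bulk RNA, fewer lymphocytes and less of a transcript in each lymphocyte cannot be told apart.

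*Cd3e* (chr9:44998743-45009590) marks T cells of every kind. It had 9 to 38 counts in the tdTom- libraries of mice 1 to 6 (0.470 to 1.91 CPM), 117 in mouse 7 and 156 in mouse 8 (5.34 and 6.59 CPM). In tdTom+ it had 4 to 26 counts, or 0.169 CPM at the lowest, 0.608 at the median and 1.08 at the highest. The 6 lower tdTom- libraries overlapped the tdTom+ libraries, and 4 counts carry an exact 95% Poisson interval of 1.09 to 10.2 for counting error alone. Its log2 fold change was -1.86 (SE 0.58, edgeR adjusted p = 0.00950) with all mice and -0.77 (SE 0.42, adjusted p = 0.118) without mice 7 and 8. With the replicate block it was -1.64 (SE 0.37, edgeR adjusted p = 0.00164).

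*Trdc* (chr14:54142851-54148868), the γδ T cell gene, was the scarcest, with 3 to 20 counts in tdTom+ and 5 to 22 in 6 tdTom- libraries. It had 54 counts in tdTom- of mouse 7 and 90 in mouse 8. It was not called with all mice (log2 fold change -1.59, SE 0.53, edgeR adjusted p = 0.0152) and was called with the replicate block (-1.49, SE 0.36, adjusted p = 0.00231). Without mice 7 and 8 it was not called either way (-0.75, SE 0.42, edgeR adjusted p = 0.129, and -0.77, SE 0.29, adjusted p = 0.0334 with the replicate block). It was lower in tdTom+ in 7 of 8 mice. *Gm43434* and *Trdv5* overlap it on the other strand, with 0 and 14 counts over all libraries.

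*Cd8a* (chr6:71373427-71379171) had 0.887 CPM at the lowest, 2.39 at the median and 13.4 at the highest in tdTom-, the highest in mouse 8. In tdTom+ it had 0.223 CPM at the lowest, 1.27 at the median and 2.1 at the highest, in mouse 3. On the log2 scale the difference was -1.87 (SE 0.54, edgeR adjusted p = 0.00619), and -0.79 (SE 0.38, adjusted p = 0.0772) without mice 7 and 8. With the replicate block and without those mice *Cd8a* was called (-0.79, SE 0.22, edgeR adjusted p = 0.00628). *Cd8b1*, for the chain that completes the conventional CD8 heterodimer, did not move with it. In tdTom- of mice 7 and 8 *Cd8b1* had 11 and 12 counts against 3 to 10 in the other mice, while *Cd8a* had 230 and 317 against 17 to 72.

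*Itgae* (chr11:73090583-73147446), the E-cadherin-binding integrin chain, had 0.730 CPM at the lowest, 3.22 at the median and 12.0 at the highest in tdTom- and 0.334, 1.44 and 2.62 in tdTom+. It was lower in tdTom+ in 8 of 8 mice. The fitted log2 change was -1.67 (SE 0.48, edgeR adjusted p = 0.00575), and -0.85 (SE 0.36, adjusted p = 0.0482) without mice 7 and 8. With the replicate block and without those mice *Itgae* was called (-0.87, SE 0.15, edgeR adjusted p = 0.000228). *Haspin* overlaps *Itgae* on the other strand, with 2142 counts over all libraries, and reads were counted by strand.

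The granzymes were the most abundant of the lymphocyte genes. *Gzma* (chr13:113093825-113100979) had 3.24 to 13.0 CPM in tdTom- of mice 1 to 6, 55.8 in mouse 7 and 60.7 in mouse 8. In tdTom+ it had 1.39 CPM at the lowest, 5.15 at the median and 12.2 at the highest. Its log2 fold change was -1.83 (SE 0.58, edgeR adjusted p = 0.0113), which was not called, and -1.43 (SE 0.36, adjusted p = 0.00333) with the replicate block, which was. Without mice 7 and 8 it was -0.69 (SE 0.37, edgeR adjusted p = 0.119), and -0.74 (SE 0.16, adjusted p = 0.00108) with the replicate block.

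*Gzmb* (chr14:56258856-56262260) followed *Gzma*. It had 1.15 to 5.83 CPM in tdTom- of mice 1 to 6, 22.7 in mouse 7 and 21.0 in mouse 8, and 0.613, 2.06 and 4.07 CPM at the lowest, median and highest in tdTom+. The log2 fold change was -1.93 (SE 0.57, edgeR adjusted p = 0.00675), and -0.82 (SE 0.37, adjusted p = 0.0660) without mice 7 and 8. With the replicate block and without those mice *Gzmb* was called (-0.84, SE 0.16, edgeR adjusted p = 0.000421). Both granzymes were lower in tdTom+ in 8 of 8 mice.

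**Figure D2:**
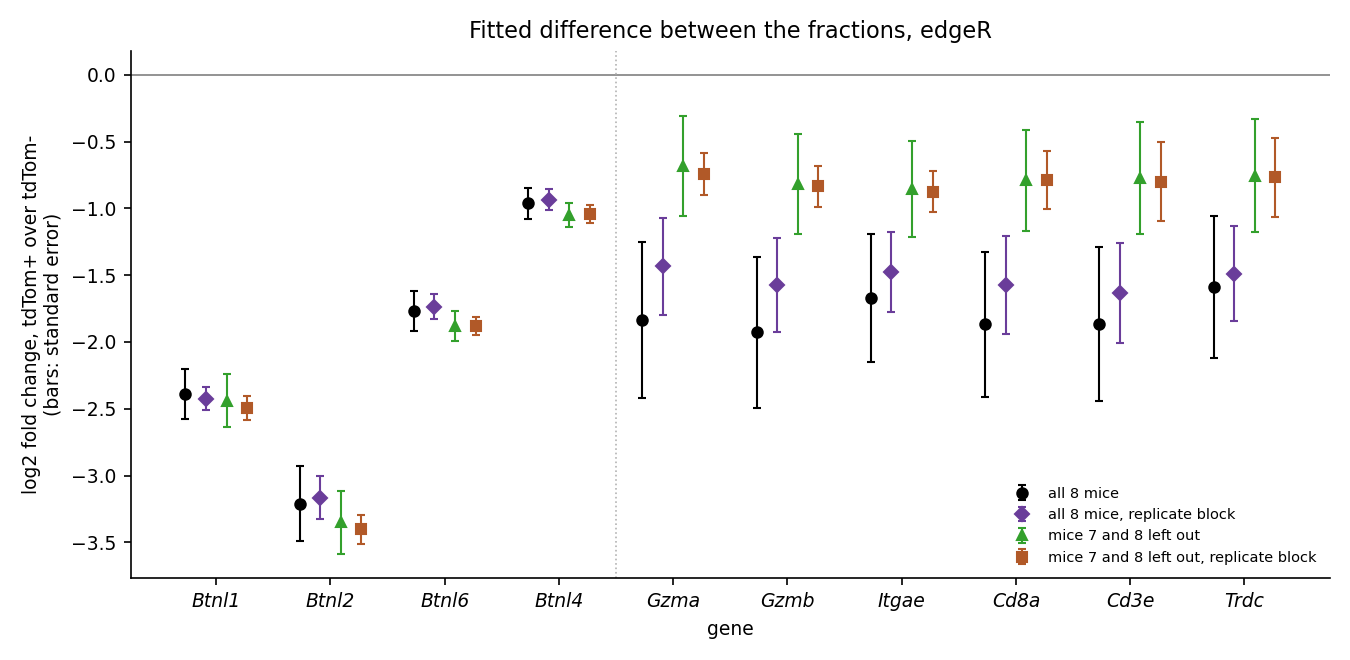
Log2 fold change of tdTom+ over tdTom- for each gene, with standard errors, from 4 edgeR fits: all mice, all mice with the replicate block, and the same without mice 7 and 8. The butyrophilin-like genes change little over the 4 fits. Without the block, the lymphocyte genes move from between -1.93 and -1.59 with all mice to between -0.85 and -0.69 without mice 7 and 8. With the replicate block they move from between -1.64 and -1.43 to between -0.87 and -0.74.

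Per kilobase of exon, the mean level in tdTom- was 23.8 CPM for *Gzma*, 5.64 for *Gzmb*, 1.53 for *Cd3e*, 1.45 for *Cd8a*, 1.05 for *Itgae* and 0.335 for *Trdc*. The coefficients of variation ran from 88.3% to 112%, and the libraries of neighbours in this order overlapped. The means include mice 7 and 8, and the order without them is not given. In tdTom- of mice 1 to 6, *Gzma* had 3.68 to 14.8 CPM per kilobase, *Cd3e* 0.327 to 1.33 and *Cd8a* 0.283 to 1.16. Over all 8 mice the same order of means held in tdTom+, from 6.66 CPM for *Gzma* to 0.113 for *Trdc*. All of these means lay below the mean of the scarcest butyrophilin-like gene of the same fraction, but single libraries did not all follow. In tdTom-, *Gzma* had 63.5 CPM per kilobase in mouse 7 and 69.1 in mouse 8, against 29.5 and 30.5 for *Btnl4*. In tdTom+ it had 11.2 in mouse 3 and 13.9 in mouse 8, against 10.3 and 8.29 for *Btnl2*.

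Over all 8 mice, the difference between the fractions within a mouse varied more for the lymphocyte genes than for the butyrophilin-like genes. The difference of log2 CPM between the fractions lay between -2.76 and -2.04 for *Btnl1*, between -3.78 and -2.22 for *Btnl2*, between -2.09 and -1.22 for *Btnl6* and between -1.26 and -0.57 for *Btnl4*, with no mouse above 0. For *Cd3e* it ran from -3.31 in mouse 7 to 0.22 in mouse 6, and for *Gzma* from -4.10 in mouse 7 to -0.14 in mouse 6. The SD over the 8 mice was 0.25 to 0.55 for the butyrophilin-like genes and 1.03 to 1.28 for the lymphocyte genes. In mice 1 to 6 the difference lay between -1.99 and 0.22 for *Cd3e*, between -1.62 and 0.04 for *Cd8a* and between -1.45 and 0.13 for *Trdc*. It lay between -1.36 and -0.14 for *Gzma*, between -1.23 and -0.58 for *Itgae* and between -1.22 and -0.26 for *Gzmb*. The SD without mice 7 and 8 is not given. In mouse 7 the lymphocyte genes had their lowest values, while *Btnl2* had its highest.

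**Figure D3:**
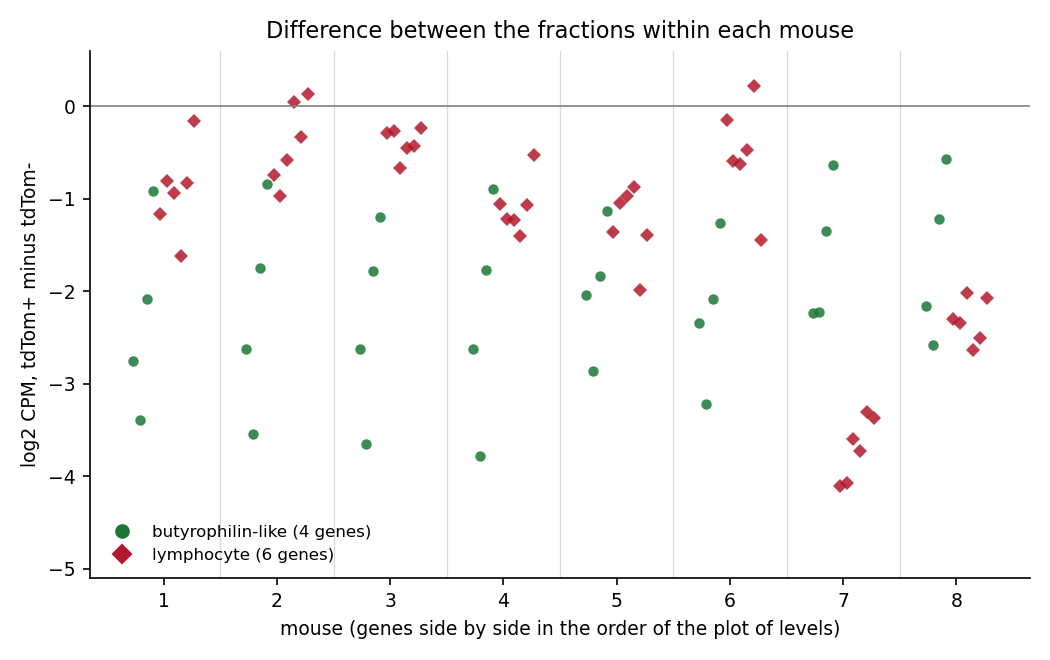
Difference in log2 CPM between tdTom+ and tdTom- of the same mouse, 1 column per mouse, with butyrophilin-like genes as green circles and lymphocyte genes as red diamonds. The green circles stay within a narrow band for each gene, and the red diamonds lie near or above -2 in mice 1 to 6 and between -4.10 and -2.02 in mice 7 and 8.

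No shift in the proportions of the lymphocyte transcripts was detectable at these counts. Ratios to *Cd3e* within a library were compared for the other 5 genes, and none passed the test between the fractions (exact two-sided permutation p = 0.724 to 0.964, adjusted over the 5 to 0.964). *Gzma* stood at 9.18 times *Cd3e* in tdTom- and 9.08 times in tdTom+ (geometric means of count ratios), a log2 difference of -0.02 (95% interval -0.41 to 0.44). The log2 difference was -0.06 for *Gzmb* (-0.65 to 0.56), -0.07 for *Cd8a* (-0.62 to 0.59), 0.02 for *Itgae* (-0.48 to 0.58) and 0.12 for *Trdc* (-0.71 to 0.67). These intervals leave room for changes of up to about 0.7 on the log2 scale in either direction. By contrast, 5 of the 6 ratios between butyrophilin-like genes, named above, differed in every mouse.

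**Figure D4:**
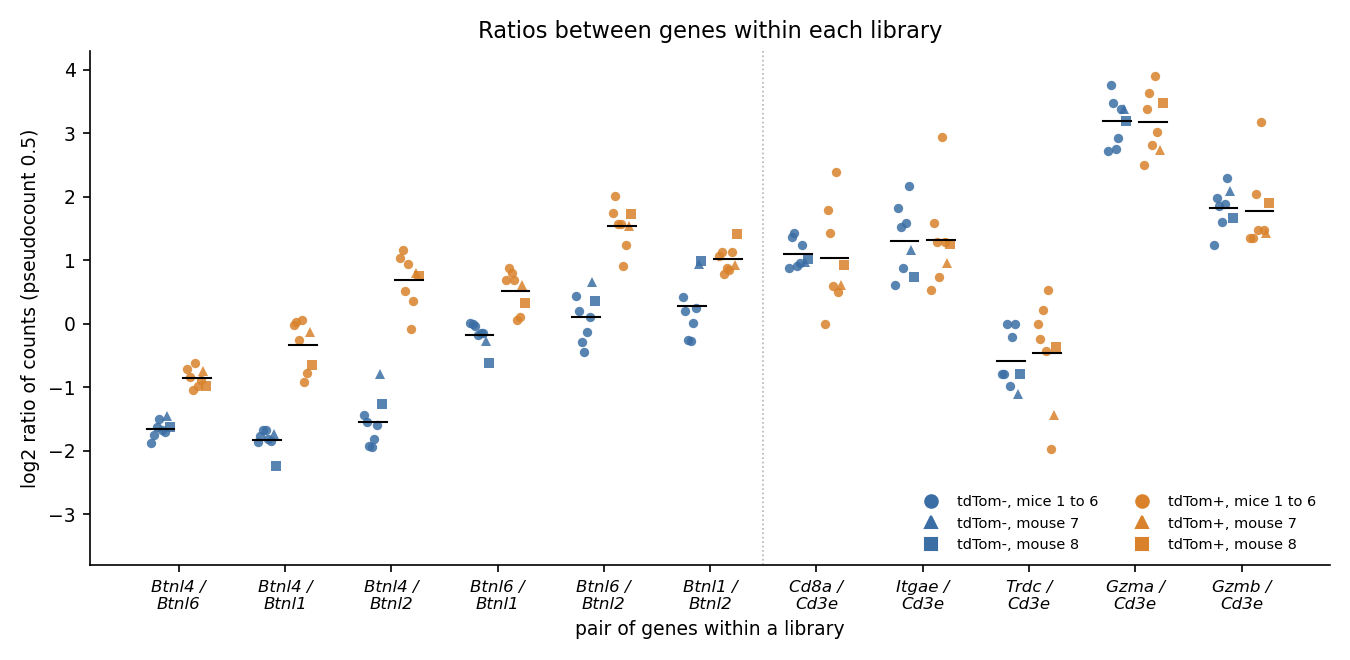
Log2 ratio of counts between pairs of genes within each library, tdTom- in blue and tdTom+ in orange, with mouse 7 as triangles, mouse 8 as squares and black bars at the means. The bars of the 6 butyrophilin-like pairs are 0.69 to 2.23 apart, and those of the 5 ratios to *Cd3e* are at most 0.12 apart.

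Across mice, the correlation with *Cd3e* within a fraction was positive for every lymphocyte gene and of either sign for the butyrophilin-like genes. The difference between the sets was not tested. In tdTom- the relation was computed over mice 1 to 6, since mice 7 and 8 stood apart. Pearson's r with *Cd3e* was 0.74 to 0.94 for the 5 lymphocyte genes, 4 of them at an exact permutation p under 0.05, and -0.37 to 0.68 for the butyrophilin-like genes, none of them. The closest was *Cd8a* (r = 0.94, exact permutation p = 0.00972; Spearman's rho = 1, exact p = 0.00278). In tdTom+, over 8 mice, r was 0.62 to 0.89 for the lymphocyte genes, again 4 of 5 at p under 0.05, and -0.45 to -0.10 for the butyrophilin-like genes, none of them. Without the mice farthest from the median of *Cd3e*, 5 and 1, r turned to 0.64 for *Btnl1*, 0.57 for *Btnl2* and 0.22 for *Btnl6* and was -0.03 for *Btnl4* (exact permutation p = 0.165 to 0.971), so the sign of these values depended on those mice.

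In tdTom+ the closest was *Gzma* (r = 0.89, exact permutation p = 0.00370; rho = 0.88, exact p = 0.00724), with r = 0.87 when mice 5 and 1 were left out. Without those mice *Cd8a* had r = 0.58 (exact permutation p = 0.233) in place of 0.69 (exact p = 0.0457; rho = 0.55, exact p = 0.171), over 6 mice in place of 8, and *Trdc* had r = 0.61 (exact permutation p = 0.25). Over all 18 relations no Pearson p adjusted by the Benjamini-Hochberg method was under 0.05 (lowest 0.0665), and none was for rho (lowest 0.05). These libraries held 4 to 38 counts of *Cd3e*, which limits the precision of each r.

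**Figure D5:**
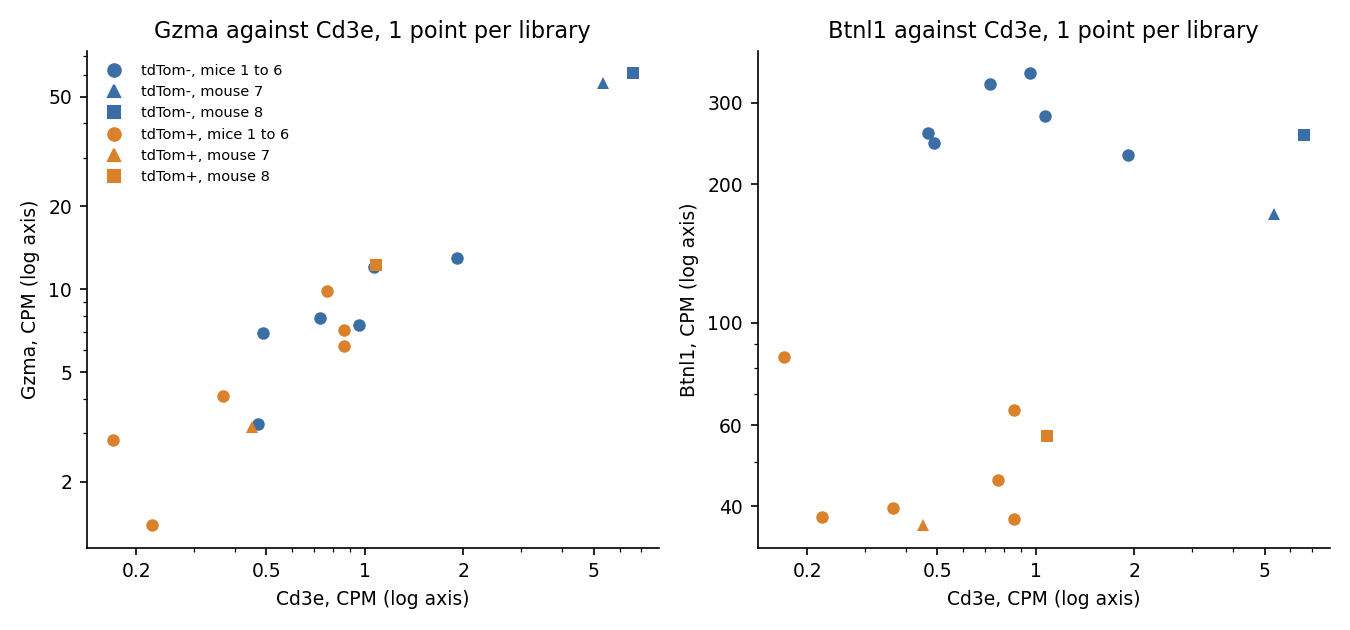
*Gzma* (left) and *Btnl1* (right) against *Cd3e* in every library, CPM on log axes, tdTom- in blue and tdTom+ in orange, with mouse 7 as triangles and mouse 8 as squares. *Gzma* climbs with *Cd3e* from 1.39 to 60.7 CPM across both fractions, and *Btnl1* falls into 2 levels, 172 to 347 CPM in tdTom- and 36.4 to 84.5 in tdTom+.

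The genes whose pattern was nearest differed as well. As a measure of likeness, deviations of log2 CPM from the fraction mean were correlated over the 16 libraries, those of mice 7 and 8 included. Nearest to *Btnl1* were *Hadh* (r = 0.97), a mitochondrial enzyme of fatty acid oxidation, *Mfsd4b2* (0.96), *Hkdc1* (0.95), a hexokinase-like gene, *Maoa* (0.95), monoamine oxidase A, and *Tgfbi* (0.95). *H2-T3*, which encodes the thymus leukaemia antigen that binds CD8αα, ranked 10 (r = 0.94) and was singled out after its value was seen. *Btnl2*, *Btnl6* and *Btnl4* ranked 432, 659 and 1278 of the genes tested, with r of 0.79, 0.74 and 0.61. By the same measure *Cd3e* had r = -0.31 with *Btnl1*, -0.54 with *Btnl2*, -0.67 with *Btnl4* and -0.70 with *Btnl6*. These values include mice 7 and 8, whose tdTom- libraries held the most *Cd3e*, and are not given without them. Over tdTom- of mice 1 to 6 alone, r with *Cd3e* was -0.09 for *Btnl1*, 0.68 for *Btnl2*, 0.19 for *Btnl4* and -0.37 for *Btnl6*.

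Nearest to *Cd3e* were *Ccl5* (r = 0.95), a chemokine of memory and cytotoxic T cells, *Gimap4* (0.95), a GTPase gene of lymphocytes, *Gzma* (0.94), *Gzmb* (0.93) and *Cd7* (0.93). *Cd8a* ranked 8 (r = 0.90), *Itgae* 21 (0.86) and *Trdc* 22 (0.86). These values of likeness to *Cd3e* also include mice 7 and 8.

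Other genes of the T cell were read from fixed lists, of which most members were too scarce to test. Calls in these lists stand beside 27.0% lower and 22.7% higher of all genes tested. Of 20 genes of T cell receptor signalling, 6 were tested, with 1 called lower (*Cd3e*), 1 higher (*Skap1*) and 4 not called, among them *Cd7* (log2 fold change -1.60, SE 0.56), *Cd3g* (-1.38, SE 0.58) and *Lck* (-0.85, SE 0.46). Of 13 T cell receptor constant and variable segments in the table, 4 were tested and 1 was called lower, *Trac* (log2 fold change -1.72, SE 0.46), the αβ receptor gene. With the replicate block all 4 were called lower (*Trac*, *Trdc*, *Tcrg-C1* and *Tcrg-C2*), beside 30.0% of all genes. The γ segments *Tcrg-V5* and *Tcrg-V6* had no count in any library, and *Tcrg-V7*, the segment of the cells that answer to BTNL1 and BTNL6, had at most 34 counts and was not tested.

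Of 22 cytotoxic effector genes, 7 were tested, with 4 called lower (*Gzmb*, *Ccl5*, *Srgn* and *Fcer1g*, the last of which is also a myeloid gene), 1 higher (*Cd244a*) and 2 not called (*Gzma* and *Nkg7*). *Srgn*, the gene of a granule proteoglycan core, kept its call without mice 7 and 8 (log2 fold change -2.25, SE 0.44, with all mice and -1.67 without them). *Gzmb* and *Ccl5* did not (edgeR adjusted p = 0.0660 and 0.124 without those mice). With the replicate block and without those mice *Gzmb* was called (edgeR adjusted p = 0.000421) and *Ccl5* was not (adjusted p = 0.0142). The difference between *Srgn* and these genes was not tested. Of 23 homing and residence genes, 9 were tested, with 4 called lower (*Itgae*, *Cd8a*, *Il2rb* and *Ahr*), 3 higher (*Gpr55*, *Itga1* and *Itga4*) and 2 not called (*Itgb7* and *Cd8b1*). *Ahr*, the aryl hydrocarbon receptor, is also an epithelial gene, and its level was even across libraries (15.9 ± 1.31 CPM in tdTom- and 9.76 ± 0.827 in tdTom+, SD, n = 8 each). With the replicate block *Cd7* and *Gzma* were called lower too. Without mice 7 and 8 *Srgn* and *Ahr* were the only genes called lower among those of the 4 lists still tested. The genes still tested no longer held *Skap1*, *Trac*, *Tcrg-C1*, *Tcrg-C2* or *Fcer1g*. With the replicate block and without those mice, 3 cytotoxic and 4 homing genes were called lower, beside 30.2% of all genes. The median log2 fold changes of the 4 lists were -1.20, -1.44, -1.76 and -0.11 with all mice, against 0.01 for all genes tested, and -0.25, -0.75, -0.71 and 0.22 over the 5, 1, 6 and 9 genes tested without mice 7 and 8.

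Sums of B and plasma cell, myeloid, mast cell and CD4+ T cell markers were higher in tdTom- of mouse 7 than of mouse 8. The 6 B and plasma cell genes summed to 359 CPM in tdTom- of mouse 7 and 49.1 in mouse 8, against 39.6 to 132 in mice 1 to 6 and 2.29 to 40.9 in tdTom+, and the 2 tested, *Jchain* and *Mzb1*, were called lower. The 6 myeloid genes summed to 27.7 CPM in mouse 7, 18.7 in mouse 8, 9.98 to 14.6 in mice 1 to 6 and 5.50 to 9.07 in tdTom+, with 3 of 3 tested called lower. The 5 mast cell genes summed to 4.93 CPM in mouse 7, 0.211 in mouse 8 and at most 2.33 elsewhere, and the 3 genes of CD4+ T cells to 0.867, 0.422 and at most 0.290, and none of these 8 genes passed the filter. *Ncr1*, a receptor gene of NK cells, had at most 1 count in any library. The 6 lymphocyte genes themselves summed to 109 CPM in mouse 7, 116 in mouse 8, 6.73 to 28.8 in mice 1 to 6 and 3.01 to 22.9 in tdTom+. The part of such cells in the lymphocyte result was not tested.

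Absorptive markers fell with the butyrophilin-like genes. All 8 absorptive markers were called lower in tdTom+ (median log2 fold change -3.00), with a sum of 14550 CPM in tdTom- of mouse 7, 24823 in mouse 8 and 27682 to 38346 in mice 1 to 6, against 1563 to 6021 in tdTom+. All 8 goblet markers were called higher (median log2 fold change 7.25). Of 6 general epithelial genes 3 were called higher, 1 lower and 2 not called, beside 22.7% higher and 27.0% lower of all genes tested. Log2 fold changes of the 8 absorptive markers lay between -3.59 and -2.38, a range that took in *Btnl2* (-3.21) and *Btnl1* (-2.39) but not *Btnl6* (-1.77) or *Btnl4* (-0.96). The 2 tdTom- libraries with the lowest absorptive sums were those of mice 7 and 8, the same 2 that were lowest for *Btnl2*, *Btnl6* and *Btnl4*, and the part of the absorptive share in those levels was not tested.

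Of 8 transcription factors of the enterocyte programme, 5 were called lower, 2 higher and 1 not called. Of all genes tested, 27.0% were called lower and 22.7% higher. *Hnf4g*, a factor that binds the motif marked above, was 287 ± 69.4 CPM in tdTom- and 71.5 ± 15.4 in tdTom+ (SD, n = 8 each; log2 fold change -2.0, SE 0.16, edgeR adjusted p = 3.07e-09). Its paralogue *Hnf4a* was 609 ± 50.2 and 593 ± 41.9 CPM and was not called (edgeR adjusted p = 0.658). *Cdx1* rose by 0.95 (SE 0.09) and *Cdx2* fell by 0.40 on the log2 scale (SE 0.09).

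Genes through which the epithelium deals with intraepithelial lymphocytes went both ways. Of 23 tested, 9 were called lower, 6 higher and 8 not called, beside 27.0% lower and 22.7% higher of all genes tested. *H2-T3* fell as *Btnl1* did, from 221 ± 46.9 to 42.2 ± 12.4 CPM (SD, n = 8 each; log2 fold change -2.39, SE 0.17). So did the cytokine genes *Il15* (-3.14, SE 0.30), whose product sustains intraepithelial lymphocytes, and *Il18* (-2.12, SE 0.20), and *Ccl25* (-1.81, SE 0.16), which encodes the chemokine for CCR9. *Cdh1*, the E-cadherin gene whose product CD103 binds, rose by 0.47 (SE 0.08), and the class I genes *H2-T22* and *H2-T23* rose by 0.60 (SE 0.09) and 0.56 (SE 0.14). *Lgals9* was not called (401 ± 81.4 against 459 ± 49.4 CPM).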

How the data were processed

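The authors aligned the 50 bp single-end reads of stranded mRNA libraries to GRCm38.p3 with TopHat2 2.1.1 and deposited raw counts per Ensembl gene. Per the file headers, featureCounts 1.5.0-p1 made these counts (the processing notes name Subread 1.5.2) on exons, reverse strand and primary alignments, with no normalization. Here they were filtered with filterByExpr, TMM-scaled and tested with the quasi-likelihood F-test of edgeR 4.0.16 (R 4.3.3) without a block, since the methods name none, at a Benjamini-Hochberg adjusted p of 0.01. CPM are TMM-scaled, and log2 CPM use a prior count of 2. Both fractions came from each mouse, so that the replicate number pairs libraries by design. Same-mouse deviations correlated with a mean r of 0.426 (0.245 to 0.634), and the replicate block is given where it changes a call. Ratios used counts plus 0.5, with exact permutation and sign-flip (256 patterns) tests. Correlations used all pairings (720 for 6 mice, 40320 for 8). The tdTom- correlations, planned over 8 mice, used 6 because mice 7 and 8 stood apart. Symbols matched 44585 of 45513 identifiers. The edgeR, DESeq2 and limma fits were tested on simulated data. The members, lists and rules were chosen with earlier results of these data known. Named genes were the 10 members, the list genes with the highest level per kilobase or with no count, the 5 genes nearest *Btnl1* and *Cd3e*, *Epcam* and *Atoh1*, and some list genes chosen after their values were seen. Alternatives were RLE size factors, total counts, DESeq2 1.42.0, limma-voom (limma 3.58.1), replicate blocks, no filter, 10 counts in every library, thinning to 17116405 counts, other pseudocounts and leaving out each mouse. Poisson intervals cover counting error only.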

Additional observations from a re-analysis of the deposited data

Results flagged for a closer look

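In 42 sets of 8 libraries, 4 had a highest or lowest value whose gap to its neighbour was a larger part of the range than Dixon's 95% critical value for 8 values allows, where about 2.1 would by chance. In tdTom+ of mouse 5, which had 4 counts of *Cd3e*, the log2 ratio to *Cd3e* was the highest for *Itgae* (2.94, next 1.58, gap 0.562 of the range) and for *Gzmb* (3.17, next 2.04, gap 0.617). In tdTom- of mouse 8, the log2 ratio to *Btnl1* was the lowest for *Btnl4* (-2.25, next -1.86, gap 0.669) and for *Btnl6* (-0.62, next -0.27, gap 0.549). Mouse 8 was therefore low in *Btnl4* and *Btnl6* beside *Btnl1* in a library that was also high in *Cd3e*, at 156 counts.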

How the results depend on the processing

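The 4 butyrophilin-like genes were called lower under all 22 alternatives, with log2 fold changes of -3.40 to -3.02 for *Btnl2*, -2.49 to -2.26 for *Btnl1*, -1.88 to -1.65 for *Btnl6* and -1.05 to -0.82 for *Btnl4*. The 6 lymphocyte genes kept their direction, but 4 calls became 0 with limma-voom (6 of 6 at an unadjusted p under 0.05) or without mice 7 and 8, 1 of the 2 tested with at least 10 counts in every library, and 2 with thinning. Leaving out 1 mouse gave 0 to 4 calls, with 0 without mouse 3, 4, 5, 7 or 8 (edgeR, each 6 of 6 at an unadjusted p under 0.05). The replicate block, DESeq2 and total counts gave 6. All 6 calls held with the replicate block without mouse 7. Thinning moved the median of all genes to 0.12 and turned 3473 higher and 4133 lower calls into 4177 and 3375, much as the 10-count filter did (3724 and 3042) and leaving out mouse 3 (3960 and 3224). The ratios of *Itgae*, *Gzma*, *Cd8a* and *Gzmb* to *Cd3e* changed sign without passing a test: *Itgae* fell to -0.0489 with a pseudocount of 2 and -0.0340 without mice 7 and 8, and *Gzma* rose to 0.0388 without those mice. Leaving out 1 mouse gave -0.28 to 0.0509 for *Cd8a*, -0.18 to 0.14 for *Itgae*, -0.16 to 0.0726 for *Gzma* and -0.25 to 0.0556 for *Gzmb*, while that of *Trdc* kept its sign (0.0262 to 0.42, the highest without mouse 6). The cause was not tested. With the replicate block, exact sign-flip tests gave p values of 0.766 to 0.945 for these ratios and changed no call of the 6 butyrophilin-like pairs (0.00781 to 0.0156). Depth limits *Trdc* and *Cd3e*, at 3 to 26 counts in tdTom+ libraries.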

Other observations

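Some genes of the T cell lists were higher in tdTom+ cells and did not follow *Cd3e*. *Gpr55*, a lipid receptor gene, rose from 11.8 ± 3.27 to 37.3 ± 6.41 CPM (SD, n = 8 each; log2 fold change 1.66, SE 0.14, edgeR adjusted p = 1.10e-08). *Cd244a*, which encodes the receptor 2B4, rose from 1.55 ± 0.810 to 7.85 ± 2.43 CPM (log2 fold change 2.33, SE 0.31), and *Skap1*, an adaptor gene of T cells, from 0.240 ± 0.202 to 0.817 ± 0.318 CPM (1.73, SE 0.42). *Skap1* was scarce, with 0 to 14 counts in tdTom- and 8 to 30 in tdTom+, and was not tested without mice 7 and 8. The collagen-binding integrin gene *Itga1* rose by 0.53 (SE 0.11) and *Itga4* by 0.67 (SE 0.20). All 8 mice showed the higher level in tdTom+ for each of these 5, which were named after their values were seen.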
